A study of Mus musculus with 12 samples.

Results

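The comparison is between cultured mouse pancreatic islets that received palmitate together with C3a (Palmitate + C3a, 3 libraries) and islets that received vehicle alone (Vehicle, 3 libraries), so that the difference is the joint effect of both treatments. These 6 of the 12 RNA sequencing libraries of the series were selected by the names of the columns in the count table, and all 15794 genes that passed the filter on low counts were tested. The other 6 libraries, 3 with palmitate alone (Palmitate) and 3 with C3a alone (Vehicle + C3a), entered the same model and served to split the joint effect. All islets came from wild-type males aged 10 to 12 weeks and were kept in culture in lots of about 120. Neither a transgene nor a deletion is named for any group. The labels give neither the dose, the time nor the species of C3a. Nor do they say whether replicates are independent animals or culture dishes. A p-value here therefore reflects only library-to-library spread, which may be technical.

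Palmitate is a saturated fatty acid. Fatty acids act as ligands of the PPAR nuclear receptors, which switch on genes for their import into mitochondria, oxidation and storage in lipid droplets. In beta cells, a prolonged excess of saturated fatty acid is known to strain protein folding in the endoplasmic reticulum and to activate the integrated stress response, in which phosphorylated eIF2-alpha lowers general translation while the transcription factors ATF4 and CHOP (encoded by Ddit3) induce amino acid transport, amino acid synthesis and tRNA charging genes. C3a is the small peptide cut from complement component C3. It signals through the G protein-coupled receptor C3ar1, which is present on myeloid cells and has been described on beta cells. The design asks what C3a does to islets under fatty acid load.

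Libraries of replicate 1 were sequenced in batch 1 and held 22216420 to 26110989 counts, and those of replicates 2 and 3 in batch 2, with 35876350 to 50264695. The islet label was borne out by the hormone genes: Ins1 made up 3.21% to 5.40% of each library's counts and Ins2 8.34% to 11.8%. A few libraries stood apart from their group. Replicate 3 of Palmitate + C3a had high levels of stromal genes. The collagen gene Col3a1 was at 55.6, 65.0 and 698 CPM (counts scaled to the size of the library) in the 3 Palmitate + C3a libraries, against 214, 105 and 133 CPM in Vehicle. The proteoglycan gene Lum was at 0.665, 1.52 and 44.7 CPM in Palmitate + C3a, against 2.77, 1.37 and 2.06 CPM in Vehicle. Replicate 1 of Vehicle held 333 CPM of Ighm, the immunoglobulin heavy chain of B cells, and each of the other 11 libraries held less than 1 CPM. Replicate 2 of Vehicle was high in genes of low oxygen and glycolysis, with a list sum of 8861 CPM against 4493 CPM in replicate 1 and 5830 CPM in replicate 3.

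**Figure D1:**
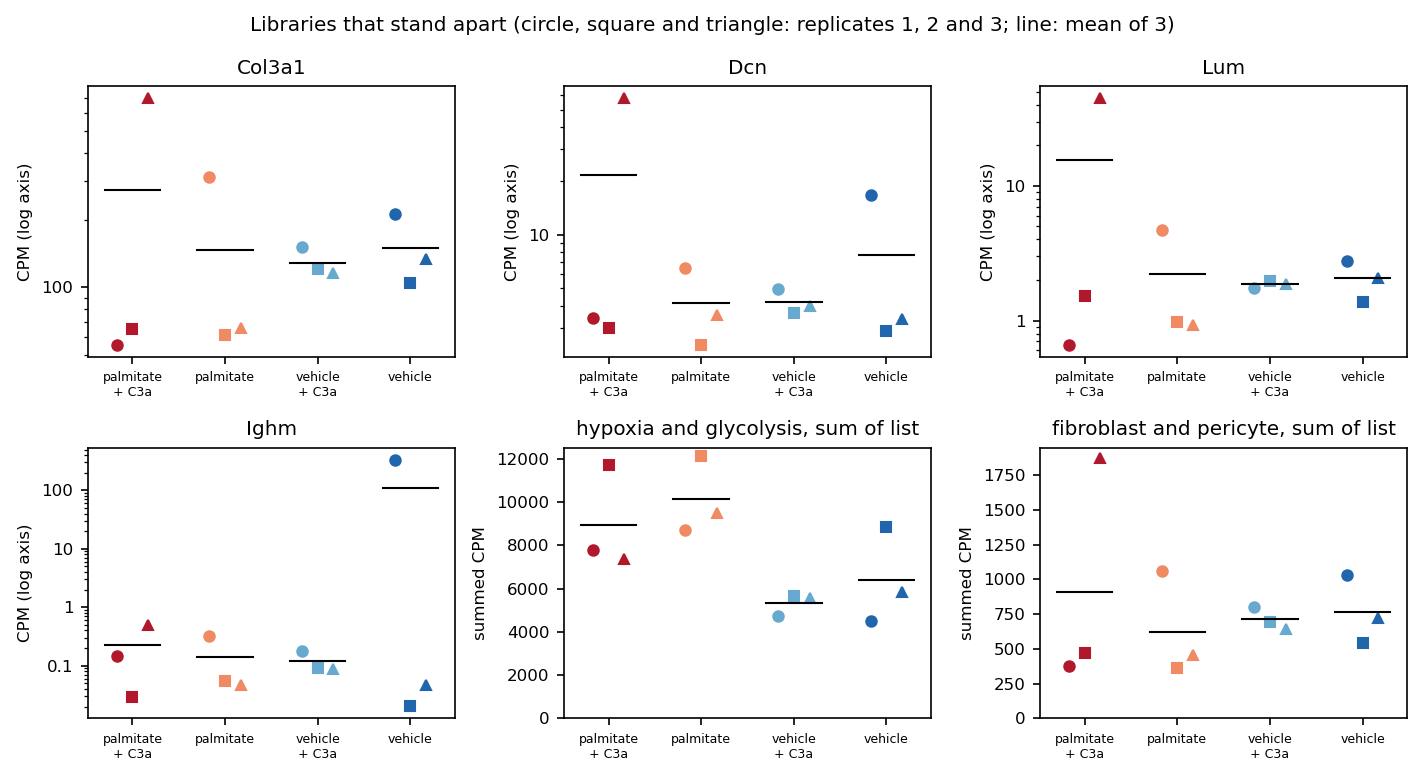
Normalised counts (CPM) of Col3a1, Dcn, Lum and Ighm (log axes) and summed CPM of the hypoxia and fibroblast lists (linear axes from 0) in every library, by group. Replicate 3 of Palmitate + C3a (triangle) is the highest point for the stromal genes, with 698 CPM of Col3a1, and replicate 1 of Vehicle (circle) is the high point for Ighm, at 333 CPM.

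With palmitate and C3a together, genes of fatty acid use and of the integrated stress response rose and many genes of mature beta cells fell. Of 15794 genes, 3998 were called (25.3%), with 2063 higher (13.1%) and 1935 lower (12.3%). Calls rest on edgeR's quasi-likelihood test and a threshold of 0.05 on the p after Benjamini and Hochberg's adjustment. Most of the changes were small: 3215 of the 3998 were under 1.5-fold, the median size was 0.33 on the log2 scale, and 248 were at least 2-fold, 168 higher and 80 lower. In 3974 of the 3998, each of the 3 same-numbered pairs showed the same sign. The calls came from these same libraries, so the shared sign is not separate support, and the numbers pair libraries only through batch. The groups did not overlap in 3149 of the called genes, and in 29.3% of all genes tested. Leaving out replicate 3 of Palmitate + C3a left 3540 called genes, leaving out replicate 1 of Vehicle left 2787, and leaving out both left 2253 (7.01% of genes higher, 7.08% lower, 14.1% in all). Without a term for batch 11.8% were called (5.97% higher, 5.84% lower), in batch 2 alone 13.4% (7.09% higher, 6.35% lower), and with any 1 library left out 9.03% to 11.9% were higher and 8.04% to 10.2% lower, against which the list counts under those settings are to be read.

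**Figure D2:**
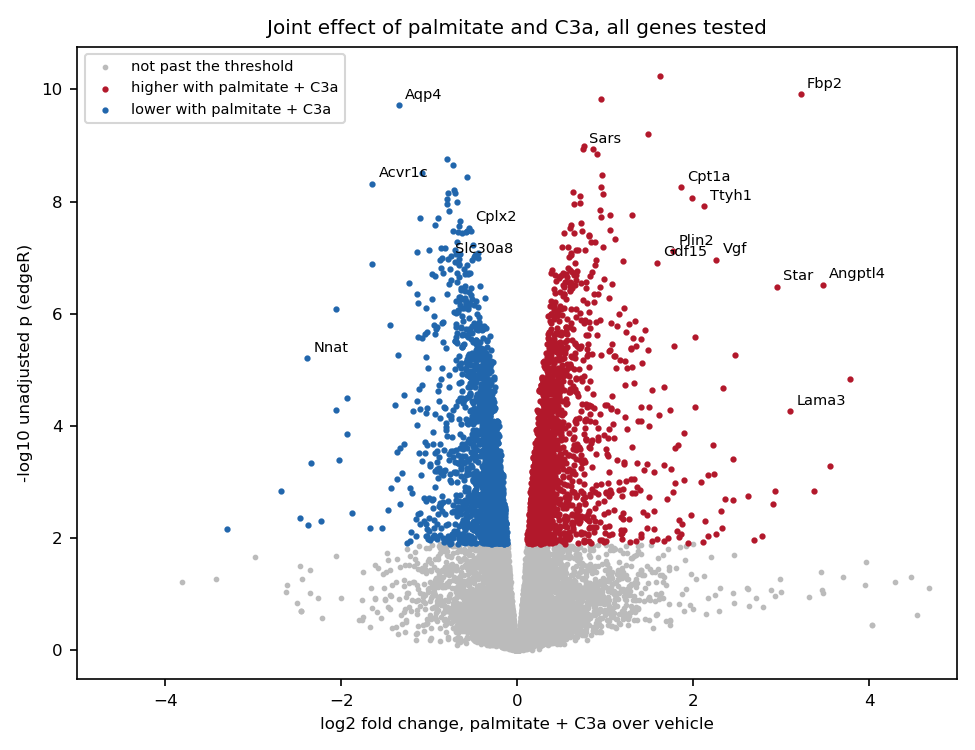
Log2 fold change of Palmitate + C3a over Vehicle (x) against the −log10 of the unadjusted edgeR p (y) for every gene tested, with the 11 genes beyond a log2 value of 5 left off the axis. Red and blue points passed an adjusted p of 0.05. The largest changes were more often increases, with 168 of the 248 genes of at least 2-fold higher with palmitate and C3a.

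At the top of the selected increases stood Angptl4 (GRCm38 chromosome 17, 33773750 to 33781830, minus strand). This PPAR target encodes a secreted inhibitor of lipoprotein lipase. It had 16.3, 14.2 and 19.5 CPM in Palmitate + C3a, against 0.993, 1.92 and 1.43 CPM in Vehicle. All 3 treated libraries lay far above all 3 vehicle libraries. The log2 fold change was 3.48 ± 0.28 (SE; edgeR adjusted p = 3.32e-05). Fbp2 (chromosome 13, 62836877 to 62858422, minus strand), a gluconeogenic fructose bisphosphatase, had 11.6, 24.4 and 19.1 CPM in Palmitate + C3a and 1.20, 2.77 and 1.89 CPM in Vehicle. Again the groups did not overlap, at a log2 fold change of 3.22 ± 0.15 (edgeR adjusted p = 7.67e-07). Star, which moves cholesterol to the inner mitochondrial membrane for steroid synthesis, had 42.0, 62.7 and 46.4 CPM in Palmitate + C3a, against 5.71, 7.59 and 6.15 CPM in Vehicle. Also among the largest increases on the log2 scale were Lama3 (3.11 ± 0.43), a laminin chain, Diras2 (2.47), a Ras-like GTPase, Ttyh1 (2.12), a membrane protein, and Acot1 (2.02), a cytosolic acyl-CoA thioesterase.

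Of the 38 measured genes of palmitate-induced lipid handling and PPAR targets, 23 rose and 1 fell. The median log2 fold change was 0.39, against 0.01 over all genes tested. The list was drawn up as palmitate-induced, with earlier results of these data known, so its rise is not separate support. Genes of mitochondrial fatty acid import were among those that rose. Cpt1a, the carnitine palmitoyltransferase that commits long-chain fatty acids to oxidation, had 151, 178 and 152 CPM in Palmitate + C3a, against 32.3, 49.9 and 51.7 CPM in Vehicle (log2 fold change 1.86 ± 0.11, edgeR adjusted p = 5.22e-06). Slc25a20, the carnitine-acylcarnitine carrier next in that route, had 34.8, 36.5 and 36.6 CPM in Palmitate + C3a and 18.2, 20.4 and 20.8 CPM in Vehicle. For both genes the lowest treated library was above the highest vehicle library. Of the oxidation enzymes, the very long-chain dehydrogenase gene Acadvl rose by 0.65 ± 0.05 on the log2 scale and the thiolase gene Acaa2 by 1.05. Hadh was the list's 1 member that fell, with 324, 382 and 446 CPM in Palmitate + C3a and 515, 532 and 564 CPM in Vehicle (log2 fold change -0.49 ± 0.08). It encodes the short-chain hydroxyacyl-CoA dehydrogenase, which is also known in beta cells as a brake on glutamate dehydrogenase.

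Genes of storage and regulation followed. Plin2, which coats lipid droplets, had 123, 109 and 97.7 CPM in Palmitate + C3a, against 28.8, 32.4 and 34.5 CPM in Vehicle, a log2 fold change of 1.77 ± 0.13. Dgat2, which makes triglyceride, rose by 1.74 ± 0.26, and Ppargc1a, a coactivator of PPARs and of mitochondrial genes, by 1.30 ± 0.16. Among 29 genes of fatty acid synthesis, desaturation and triglyceride storage, 11 rose and 5 fell. Scd1, the desaturase that turns palmitate into palmitoleate, rose by 0.72 ± 0.09, and the carbohydrate-sensing transcription factor gene Mlxipl fell, with 79.8, 86.4 and 109 CPM in Palmitate + C3a and 173, 186 and 179 CPM in Vehicle. In fits that left out 1 library, 2 to 4 of these 29 genes were lower, fewest (2) without replicate 3 of Palmitate + C3a or without replicate 1 or 3 of Vehicle, and 3 without replicate 1 of Palmitate + C3a or replicate 2 of Vehicle. Without the batch term 6 rose and 2 fell, and in batch 2 alone 7 rose and 2 fell. Of the 24 cholesterol genes 6 were higher and 5 lower, but 2 were higher and none lower without the batch term, and 3 were higher and 2 lower in batch 2 alone.

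The integrated stress response moved almost as a block: 31 of its 36 measured genes rose, none fell and 5 did not pass, with a median log2 fold change of 0.69 (0.01 over all genes). Between 28 and 32 members rose when any 1 of the 6 libraries was left out, 25 without the batch term and 25 in batch 2 alone. The list was chosen with earlier results of these data known, so its rise is not separate support. Atf4 had 454, 524 and 509.6 CPM in Palmitate + C3a, against 308, 322 and 317 CPM in Vehicle (log2 fold change 0.65 ± 0.06, edgeR adjusted p = 2.63e-05). Gdf15, a secreted stress cytokine, had 9.08, 8.76 and 9.73 CPM in Palmitate + C3a, against 2.15, 3.84 and 3.25 CPM in Vehicle (1.59 ± 0.14). Neither gene's groups overlapped. Members named after their values were seen, because they lay at the top of the list, were Trib3 (1.40 ± 0.19), a pseudokinase induced by CHOP, the serine synthesis gene Psat1 (1.46), the arginine carrier gene Slc7a3 (1.49) and Ddit3 itself (1.16 ± 0.24). Ddit3 was not called in batch 2 alone, nor without both replicate 3 of Palmitate + C3a and replicate 1 of Vehicle. Eif4ebp1, the repressor of cap-dependent translation, rose by 1.05 ± 0.08.

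ATF4 dimers are known to bind a composite C/EBP-ATF element, and the letters TGATGNAA (N for any base) were searched on both strands in the 250 bases before the start of each gene, in RefSeq promoters of build GRCm38.p6. They occurred in 9 of 29 integrated stress response genes with a promoter entry (31%), in 3 of 12 tRNA synthetase genes (25%), and in 294 of 11715 genes tested (2.51%). The share was 2.95% of the genes that rose (48 of 1628) and 2.78% of those that fell (42 of 1510). None of 19 immediate early genes held it. The integrated stress response list was drawn up around ATF4 and CHOP, so its larger share of matches is not separate support. These 5 were chosen after their values were seen, to show the element in a transcription factor, a glutathione-degrading enzyme, an amino acid synthesis enzyme, a cystine carrier and a tRNA synthetase. Each stretch is printed 5′ to 3′ on the strand of its gene with the match in capitals, and TTGCATCA is the match read on the other strand.
Atf3 (chr1:191183406-191183473, minus): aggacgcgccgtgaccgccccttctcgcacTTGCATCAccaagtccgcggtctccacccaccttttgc
Chac1 (chr2:119351019-119351086, plus): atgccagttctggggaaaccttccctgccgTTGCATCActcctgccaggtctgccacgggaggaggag
Asns (chr6:7693210-7693262, minus): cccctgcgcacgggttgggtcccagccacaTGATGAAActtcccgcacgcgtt
Slc7a11 (chr3:50443623-50443709, minus): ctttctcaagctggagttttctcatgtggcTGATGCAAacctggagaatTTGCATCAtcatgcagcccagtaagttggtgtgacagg
Aars (chr8:111033700-111033767, plus): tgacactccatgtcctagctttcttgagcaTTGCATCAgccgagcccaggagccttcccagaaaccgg
A match is only these letters in this window, and binding was not measured.

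The genes with those promoters had the following levels. Chac1 had 95.03, 101 and 106 CPM in Palmitate + C3a, against 66.9, 50.3 and 51.1 CPM in Vehicle. Asns, which makes asparagine, had 264, 318 and 326 CPM in Palmitate + C3a, against 209, 189 and 185 CPM in Vehicle. Atf3 rose by 0.78 ± 0.14 on the log2 scale. Slc7a11, the cystine carrier with 2 matches on opposite strands, had 51.7, 32.0 and 24.3 CPM in Palmitate + C3a and 31.2, 11.3 and 10.4 CPM in Vehicle. Its groups overlapped in CPM. Both libraries of batch 1 were high, and within each replicate number the treated library was above the vehicle library. It was not called without the batch term.

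Of the 20 cytosolic aminoacyl-tRNA synthetase genes, whose enzymes load amino acids onto tRNAs, 17 rose and none fell (median log2 fold change 0.40). Sars, for serine, had 400.4, 412 and 403 CPM in Palmitate + C3a, against 246, 244 and 233 CPM in Vehicle (0.75 ± 0.04, edgeR adjusted p = 2.3e-06). Aars, for alanine, had 401, 393 and 372 CPM in Palmitate + C3a, against 278, 267 and 263 CPM in Vehicle. In both genes the spread within a group was a small part of the gap between groups. Of 29 ribosomal protein genes, 27 rose and none fell, with a median of 0.28. Without the batch term 10 rose, in batch 2 alone 18, and without both replicate 3 of Palmitate + C3a and replicate 1 of Vehicle 15. Rps2 rose by 0.53 ± 0.05 and Rpl3 by 0.49 ± 0.04. Many ribosomal protein genes have near-identical pseudogene copies, and how reads were shared among these is not given in the sources used here.

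The chaperones of the endoplasmic reticulum changed less uniformly, with 13 of 28 higher and 3 lower and a median log2 fold change of 0.15. Derl1, part of the channel that returns misfolded proteins to the cytosol, rose by 0.52 ± 0.04, and its relative Derl2 fell by 0.32 on the log2 scale. Fewer members were higher without replicate 1 (7) or 2 (7) of Palmitate + C3a, or without replicate 1 (8) or 3 (5) of Vehicle, and 1 was lower in each of these 4 fits. With no batch term 1 was higher and 1 lower, and in batch 2 alone 5 were higher and 1 lower. Of 26 antioxidant genes 16 rose and 1 fell. Srxn1, which repairs oxidised peroxiredoxins, rose by 0.61 ± 0.05. The count of lower antioxidant genes was 0 without replicate 1 of Palmitate + C3a or replicate 2 of Vehicle. The fit with no batch term had 9 antioxidant genes higher and none lower. Of 26 autophagy and lysosome genes 13 rose and 2 fell, with 8 higher and 2 lower without the batch term. Sqstm1, the p62 receptor that brings cargo to autophagosomes, had 1154, 1248 and 1122 CPM in Palmitate + C3a, against 576, 634 and 606 CPM in Vehicle (0.96 ± 0.06). Ftl1, the ferritin light chain, was the gene with the largest change in mean CPM among those that rose, with 2433, 2636 and 2599 CPM in Palmitate + C3a, against 1349.8, 1728 and 1589 CPM in Vehicle.

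**Figure D3:**
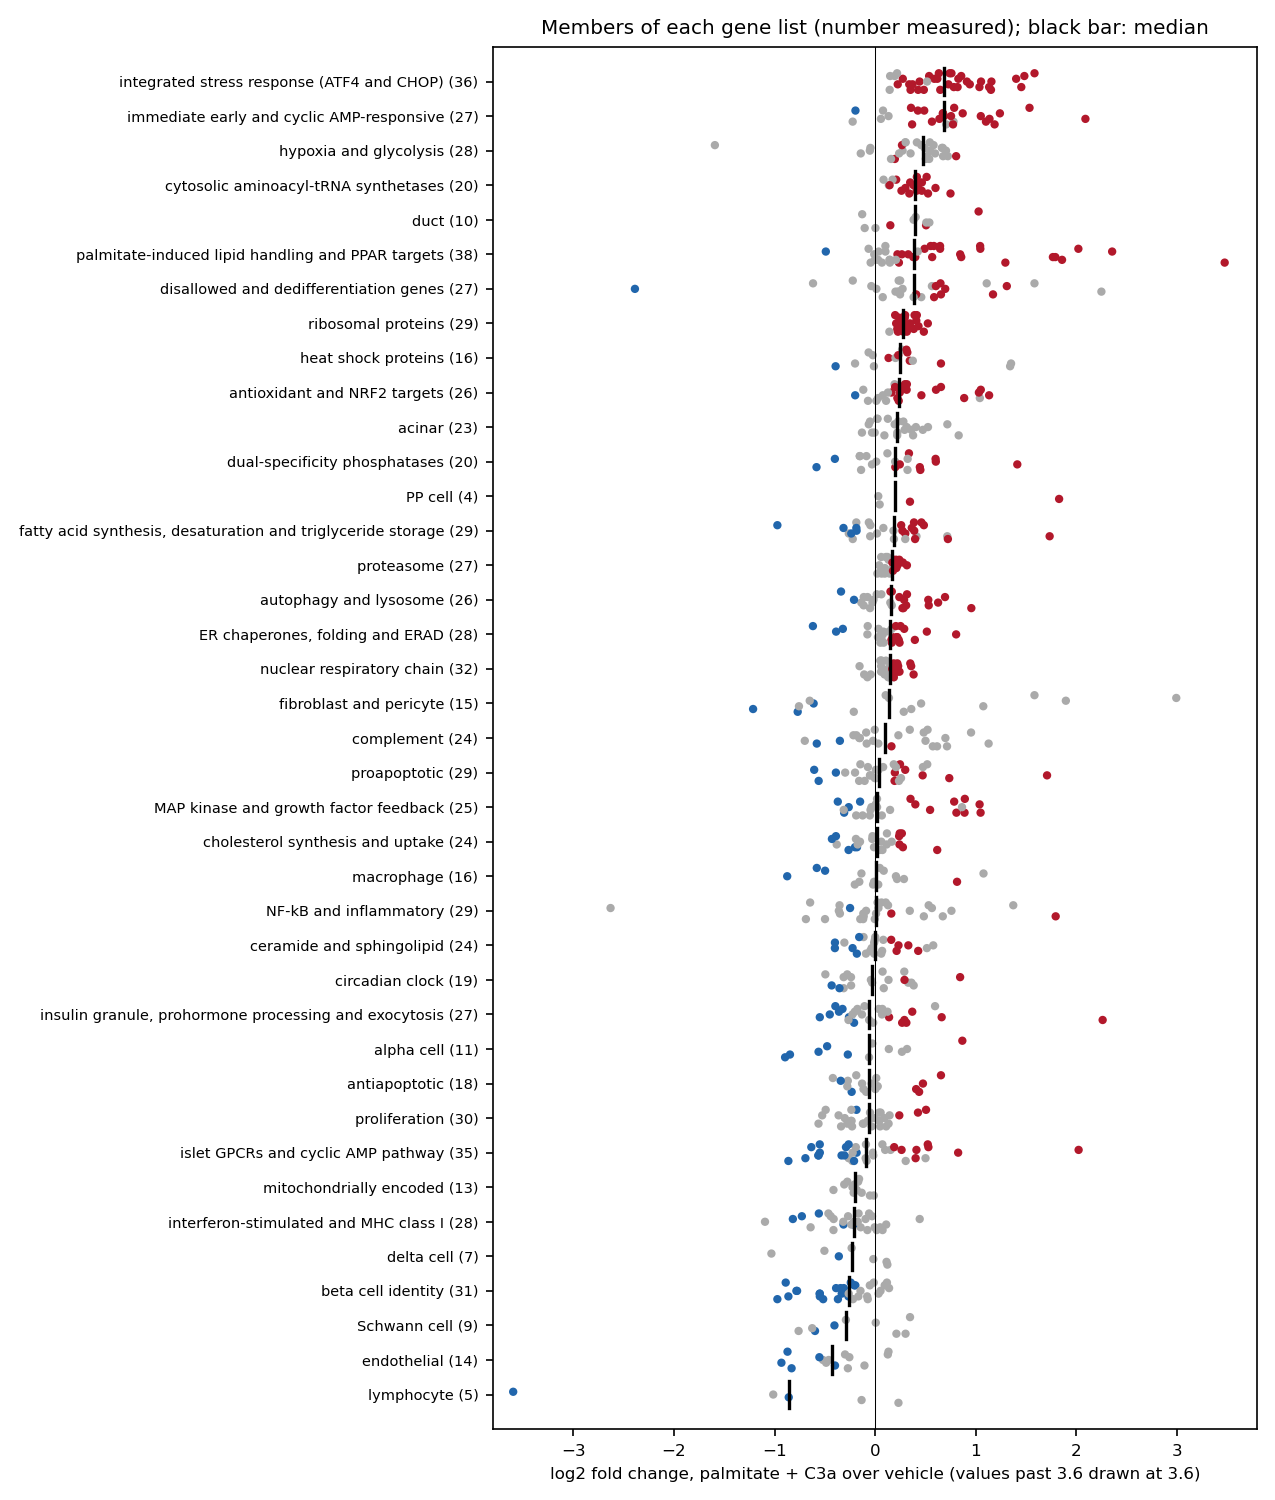
Log2 fold changes of Palmitate + C3a over Vehicle for the measured members of each gene list, red where higher and blue where lower at an edgeR adjusted p under 0.05, grey otherwise, with the median as a black bar. The integrated stress response (median 0.69) and the immediate early list (0.69) stand at the top, and the beta cell identity list has 18 blue points and no red one.

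Many genes of mature beta cells were lower. Of 31 measured beta cell identity genes, 18 fell, none rose and 13 did not pass, with a median log2 fold change of -0.26. With any 1 library left out 14 to 17 fell, without the batch term 10, and in batch 2 alone 14 fell and 1 rose. Slc30a8, the zinc carrier of insulin granules, had 384, 387 and 414 CPM in Palmitate + C3a, against 739, 629.5 and 672 CPM in Vehicle (-0.78 ± 0.07, edgeR adjusted p = 1.95e-05). Glp1r, through which GLP-1 drugs act on beta cells, had 138, 163 and 158 CPM in Palmitate + C3a, against 242, 284 and 308 CPM in Vehicle (-0.86 ± 0.07). Slc2a2, the glucose carrier GLUT2, had 244, 294 and 331 CPM in Palmitate + C3a, against 561, 516 and 522 CPM in Vehicle (-0.89 ± 0.12). In each of these 3 genes every treated library was below every vehicle library. Pdx1, the transcription factor of pancreas and beta cell development, fell by 0.52 on the log2 scale. Other beta cell genes changed less. Mafa did not pass (log2 fold change -0.08, edgeR adjusted p = 0.755). Ucn3 had a log2 fold change of -0.21 (edgeR adjusted p = 0.0492). The Ucn3 call was lost without replicate 1 or 2 of Palmitate + C3a and without replicate 1 or 3 of Vehicle. It was also lost without the batch term and in batch 2 alone. In bulk islets, fewer cells of a type and less RNA per cell cannot be told apart.

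The hormone genes themselves did not pass the test. Ins1 had 30752, 47454 and 47753 CPM in Palmitate + C3a, against 48644, 48426 and 46822 CPM in Vehicle, a log2 fold change of -0.22 ± 0.13 (edgeR adjusted p = 0.241). The low library was replicate 1, and replicates 2 and 3 lay within the range of Vehicle. The log2 fold changes were -0.17 ± 0.10 for Ins2, 0.12 ± 0.08 for Iapp, -0.06 ± 0.06 for Gcg and 0.12 ± 0.10 for Sst. Among alpha cell markers, 5 of 11 fell and 1 rose. The arginine carrier gene Slc7a2 fell by 0.89 on the log2 scale, while Gc, the vitamin D binding protein, rose by 0.87 ± 0.08. Without replicate 1 or 3 of Vehicle 3 alpha markers fell, and without replicate 2 of Vehicle 2 rose. With no batch term 3 fell.

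The genes of the secretory granule were divided, with 7 of 27 higher and 7 lower. Vgf, a precursor of neuroendocrine peptides, had 344, 382 and 305 CPM in Palmitate + C3a, against 53.6, 90.02 and 74.8 CPM in Vehicle (2.26 ± 0.15, edgeR adjusted p = 1.95e-05). Ptprn, the granule membrane protein IA-2, had 1637, 1857 and 1593 CPM in Palmitate + C3a, against 1012, 1157 and 1046 CPM in Vehicle. The groups were apart in both. Chga, the chromogranin of dense-core granules, had 8381, 10070.3 and 10493 CPM in Palmitate + C3a, against 13448, 12131 and 12339 CPM in Vehicle (-0.39 ± 0.09, edgeR adjusted p = 0.00887). Cplx2, the complexin that clamps and primes vesicle fusion, fell by 0.55 on the log2 scale. Outside this list, Pam, which amidates peptide hormones, had 1399, 1871 and 1384 CPM in Palmitate + C3a and 761, 959 and 898 CPM in Vehicle. Fewer granule genes, 4, were higher without replicate 1 or 2 of Palmitate + C3a or without replicate 3 of Vehicle. When batch was left out of the fit 3 were higher and 3 lower.

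Among the largest decreases was Nnat (chromosome 2, 157560078 to 157562522, plus strand). Its product, neuronatin, comes from an imprinted locus and aids preproinsulin processing in beta cells. It had 8.23, 12.8 and 15.4 CPM in Palmitate + C3a, against 76.6, 55.5 and 59.6 CPM in Vehicle (-2.39 ± 0.24, edgeR adjusted p = 0.000221). Acvr1c, the activin and nodal receptor ALK7, had 4.84, 4.80 and 5.79 CPM in Palmitate + C3a, against 15.2, 16.0 and 17.3 CPM in Vehicle (-1.65 ± 0.11). In both genes the lowest vehicle library was at a multiple of the highest treated one. Coq8a, an atypical kinase of coenzyme Q synthesis, had 11.8, 11.6 and 14.2 CPM in Palmitate + C3a, against 29.1, 25.9 and 28.6 CPM in Vehicle. Dpp10, an accessory subunit of A-type potassium channels, fell by 1.22 on the log2 scale. Ighm was lower still, at -7.57, with its level in 1 library of Vehicle, and is treated with the libraries that stand apart. Wdhd1, a DNA replication factor, had the lowest fold of the genes that moved in 1 direction in all 3 pairs and were chosen by fold, with 0.738, 0.546 and 0.515 CPM in Palmitate + C3a, against 5.75, 5.35 and 6.01 CPM in Vehicle (-3.29 ± 0.92, edgeR adjusted p = 0.0323). Its call did not survive the loss of any 1 library: the adjusted p was 0.0682, 0.104 and 0.123 without replicates 1, 2 and 3 of Palmitate + C3a, and 0.104, 0.054 and 0.0687 without replicates 1, 2 and 3 of Vehicle. The Palmitate libraries of Wdhd1 were at 2.17, 5.13 and 5.27 CPM and the Vehicle + C3a libraries at 0.857, 0.232 and 5.13 CPM, so that it was low in libraries with C3a, apart from replicate 3 of Vehicle + C3a. The log2 fold change was -0.51 with palmitate alone (95% interval -2.30 to 1.28) and -2.78 for C3a within palmitate (-4.91 to -0.65), which did not pass adjustment over all genes in edgeR.

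**Figure D4:**
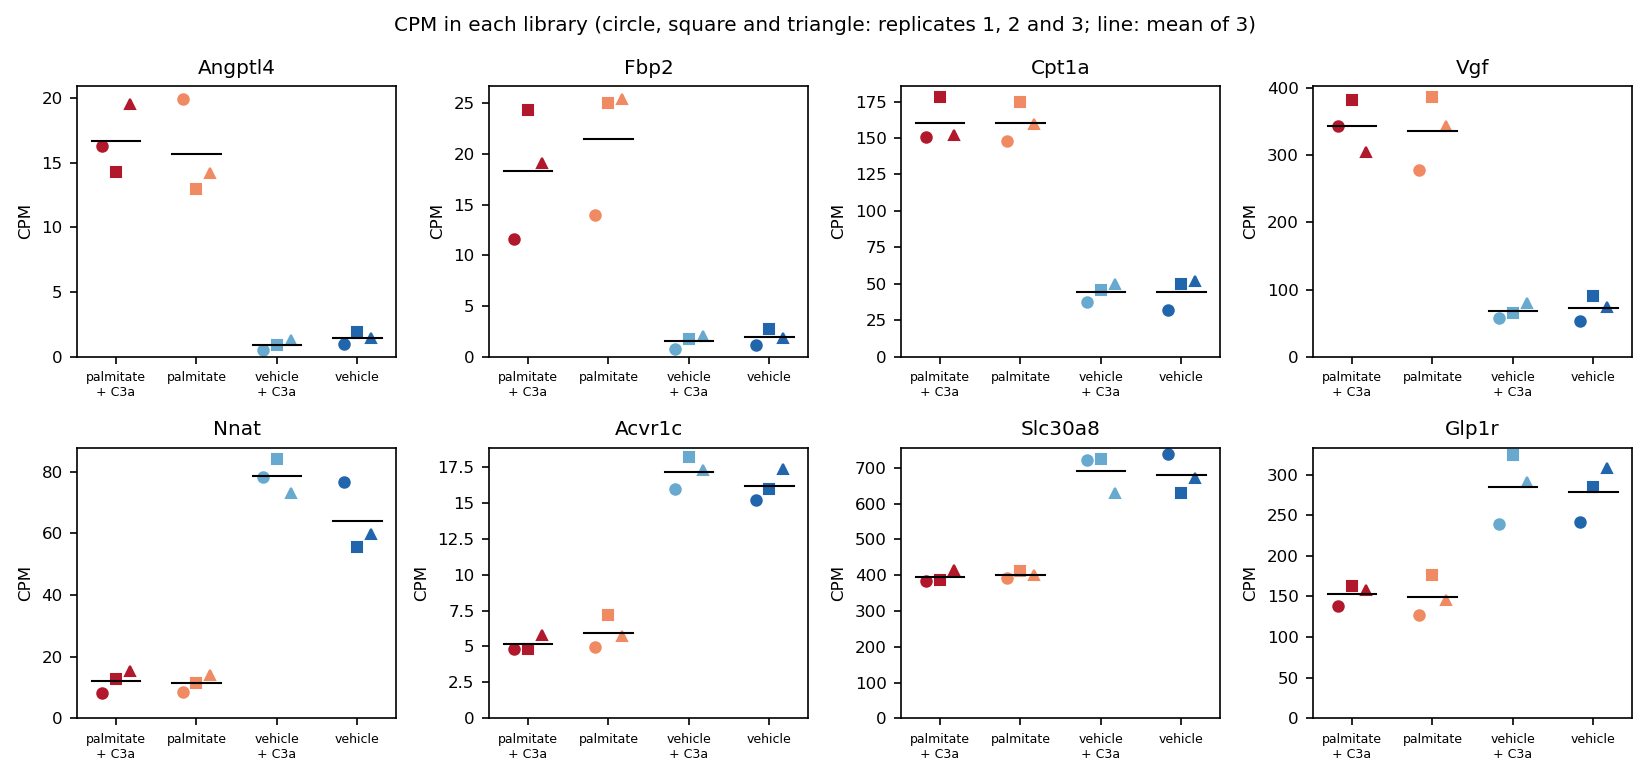
CPM of 4 genes that rose and 4 that fell, in each library of the 4 groups, with the mean of 3 as a line and all axes from 0. Palmitate + C3a and Palmitate lie together and Vehicle + C3a and Vehicle lie together, as for Slc30a8 at 384 to 414 CPM in Palmitate + C3a and 629.5 to 739 CPM in Vehicle.

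Receptors and signalling genes moved both ways. Of 35 genes of islet G protein-coupled receptors and cyclic AMP, 8 rose and 13 fell, with 3 and 6 without the batch term. Tacr3, the neurokinin B receptor, had 9.89, 9.05 and 5.89 CPM in Palmitate + C3a, against 1.45, 2.39 and 2.06 CPM in Vehicle (2.03 ± 0.24). The fatty acid receptor gene Ffar3 fell by 0.63 on the log2 scale. Adcy1, a calcium-stimulated adenylyl cyclase outside the list, rose by 1.98 ± 0.14. C3ar1, the receptor of C3a, had 8.93, 10.5 and 14.4 CPM in Palmitate + C3a, against 12.5, 11.5 and 12.2 CPM in Vehicle, and did not pass (-0.08 ± 0.16, edgeR adjusted p = 0.764). The groups overlapped. C3, the protein from which C3a is cut, had 17.3, 20.2 and 70.4 CPM in Palmitate + C3a, against 34.8, 21.2 and 11.1 CPM in Vehicle (0.72 ± 0.62, edgeR adjusted p = 0.462). The high library was replicate 3, the one with the high stromal genes.

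Of 27 immediate early and cyclic AMP-responsive genes, 20 rose and 1 fell (median log2 fold change 0.69). The count of lower members was 0 in each fit without 1 library other than replicate 3 of Palmitate + C3a. Without the batch term 9 rose, and in batch 2 alone 12. Nr4a1, an orphan nuclear receptor, had 27.3, 37.1 and 30.03 CPM in Palmitate + C3a, against 8.52, 14.7 and 9.24 CPM in Vehicle (1.54 ± 0.20, named after its values were seen). Maff, a small bZIP factor, rose by 1.24 ± 0.13 and Myc by 1.05 ± 0.13. Some genes that restrain MAP kinase signals rose too. Dusp4, a nuclear phosphatase of ERK, had 73.6, 82.5 and 68.6 CPM in Palmitate + C3a, against 21.6, 36.1 and 27.4 CPM in Vehicle (1.42 ± 0.16). Etv5, a transcription factor downstream of ERK, rose by 1.05 ± 0.08, and the feedback inhibitor gene Spry2 by 0.81 ± 0.10. Of 20 dual-specificity phosphatase genes 8 rose and 2 fell, and of 25 genes of MAP kinase and growth factor feedback 9 rose and 4 fell. Without the batch term 3 of the phosphatase genes rose and 1 fell, and in batch 2 alone 6 of the feedback genes rose and 1 fell.

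Dusp26, a phosphatase that earlier work on C3a in beta cells has singled out, had 15.7, 15.4 and 13.1 CPM in Palmitate + C3a, against 21.9, 19.1 and 17.5 CPM in Vehicle (-0.40 ± 0.12, edgeR adjusted p = 0.0291). The groups did not overlap. The adjusted p was 0.095 and 0.0932 without replicates 1 and 3 of Palmitate + C3a, and 0.0978 and 0.0885 without replicates 1 and 2 of Vehicle, and in each of these 4 fits 1 dual-specificity phosphatase gene was lower. C3a within palmitate moved Dusp26 by -0.01 on the log2 scale, with a 95% interval of -0.27 to 0.26.

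Cell death genes showed no single direction. Of 29 proapoptotic genes 7 rose and 3 fell, and of 18 antiapoptotic genes 4 rose and 2 fell. Cdkn1a, the cell cycle inhibitor p21, rose by 0.74 ± 0.10. Bcl2l11, which encodes the death inducer BIM, had 13.8, 16.3 and 15.0 CPM in Palmitate + C3a, against 21.96, 21.2 and 23.6 CPM in Vehicle (-0.56 ± 0.08, edgeR adjusted p = 0.000484). Bcl2l1, which encodes the survival protein BCL-XL, had 73.6, 88.5 and 76.7 CPM in Palmitate + C3a, against 58.6, 61.2 and 60.0 CPM in Vehicle (0.41 ± 0.06). The groups were apart for both. The count of proapoptotic genes that rose was 1 without replicate 1 of Palmitate + C3a or replicate 3 of Vehicle, 2 without replicate 3 of Palmitate + C3a or replicate 1 of Vehicle, and 1 without the batch term or in batch 2 alone.

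Markers of other cells in the islet preparation were followed beside these results. Of 14 endothelial markers 5 fell and none rose, and their summed level was 170 to 292 CPM in Palmitate + C3a and 285 to 389 CPM in Vehicle. Kdr, the VEGF receptor, had 19.2, 32.2 and 26.4 CPM in Palmitate + C3a, against 43.2, 42.1 and 61.4 CPM in Vehicle (-0.93 ± 0.17, edgeR adjusted p = 0.00323). None passed in batch 2 alone, 2 without the batch term and 8 in DESeq2. The endothelial count was 9 without replicate 2 of Vehicle, 3 without replicate 3 of Palmitate + C3a, and 1 without replicate 1 of Palmitate + C3a or without replicate 1 or 3 of Vehicle. Of 15 fibroblast and pericyte markers 3 fell and none rose, with summed levels of 378 to 1874 CPM in Palmitate + C3a and 543 to 1031 CPM in Vehicle. None passed without replicate 1 of Palmitate + C3a or without replicate 1 or 3 of Vehicle, 1 passed without replicate 2 or 3 of Palmitate + C3a, and none with the replicate block. Of 23 acinar markers none passed with all libraries in edgeR with batch as a term, 1 rose with the replicate block and 1 in DESeq2, 6 rose without replicate 2 of Vehicle and 1 without replicate 3 of Palmitate + C3a. Summed acinar levels were 4349 to 6881 CPM in Palmitate + C3a and 3246 to 5696 CPM in Vehicle. Of 10 duct markers 3 rose and none fell (median 0.39), with summed levels of 975 to 1012 CPM in Palmitate + C3a and 697 to 889 CPM in Vehicle, which did not overlap. Without replicate 2 of Vehicle 5 duct markers rose, and without both replicate 3 of Palmitate + C3a and replicate 1 of Vehicle 1. Of 16 macrophage markers 1 rose and 3 fell, with sums of 304 to 569.7 CPM in Palmitate + C3a and 376 to 476 CPM in Vehicle. Without replicate 1 of Palmitate + C3a 3 rose and 2 fell, without replicate 2 of Palmitate + C3a 1 fell, without replicate 1 of Vehicle and in batch 2 alone none fell. Of 4 PP cell markers 2 rose, and 1 did without the batch term or in batch 2 alone. Of 9 Schwann cell markers 2 fell, 4 without replicate 2 of Palmitate + C3a, 1 without replicate 1 of Palmitate + C3a or without replicate 1 or 2 of Vehicle, and none in batch 2 alone. The shares called were 50% of PP cell, 35.7% of endothelial, 30% of duct and 25% of macrophage markers. For Schwann cell markers the share was 22.2%, and for fibroblast and pericyte markers 20%. Of all genes tested 25.3% were called. The part of these cells in the changes of the gene lists was not tested.

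Of 28 genes of low oxygen and glycolysis 3 rose, although the list's median was 0.48. The share called was 10.7%, under the 25.3% of all genes tested. The summed level was 7791, 11700.4 and 7366 CPM in Palmitate + C3a, against 4493, 8861 and 5830 CPM in Vehicle. The high vehicle library was replicate 2. Without it 17 of the 28 rose, without replicate 3 of Palmitate + C3a 10 rose, and without replicate 1 or 2 of Palmitate + C3a or replicate 1 or 3 of Vehicle 1 rose. With replicate 1 of Palmitate + C3a left out, 1 fell. With the replicate block 9 rose, in DESeq2 6, without the batch term 1, and in batch 2 alone none rose and 1 fell.

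The joint effect was then set beside its parts. The comparisons of Palmitate + C3a with Vehicle, of Palmitate with Vehicle and of Vehicle + C3a with Vehicle share the 3 vehicle libraries, so their values are given side by side and not correlated. For Angptl4 the log2 fold change over Vehicle was 3.48 ± 0.28 with both, 3.39 ± 0.29 with palmitate alone and -0.64 ± 0.34 with C3a alone. For Cpt1a it was 1.86 ± 0.11 with both, 1.86 ± 0.11 with palmitate alone and 0.00 ± 0.11 with C3a alone. In both genes the 2 palmitate groups were high. Each Vehicle + C3a library of Angptl4 was below its same-numbered Vehicle library, at 0.541, 0.907 and 1.28 CPM in Vehicle + C3a and 0.993, 1.92 and 1.43 CPM in Vehicle, and the difference did not pass in edgeR. For Slc30a8 it was -0.78 ± 0.07 with both, -0.76 ± 0.07 with palmitate alone and 0.02 ± 0.07 with C3a alone. The median of the integrated stress response list was 0.69 with both, 0.69 with palmitate alone and -0.02 with C3a alone. The beta cell identity median was -0.26 with both, -0.24 with palmitate alone and 0.04 with C3a alone. Other lists differed more. The disallowed and dedifferentiation median was 0.38 with both, 0.10 with palmitate alone and 0.02 with C3a alone. In the same order the median was 0.39, 0.15 and 0.03 for the duct list and 0.48, 0.69 and -0.37 for hypoxia and glycolysis. For fibroblast and pericyte markers it was 0.14, -0.62 and -0.09. None of their members passed for C3a within palmitate in edgeR over the 12 libraries. The reason for these gaps was not tested.

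**Figure D5:**
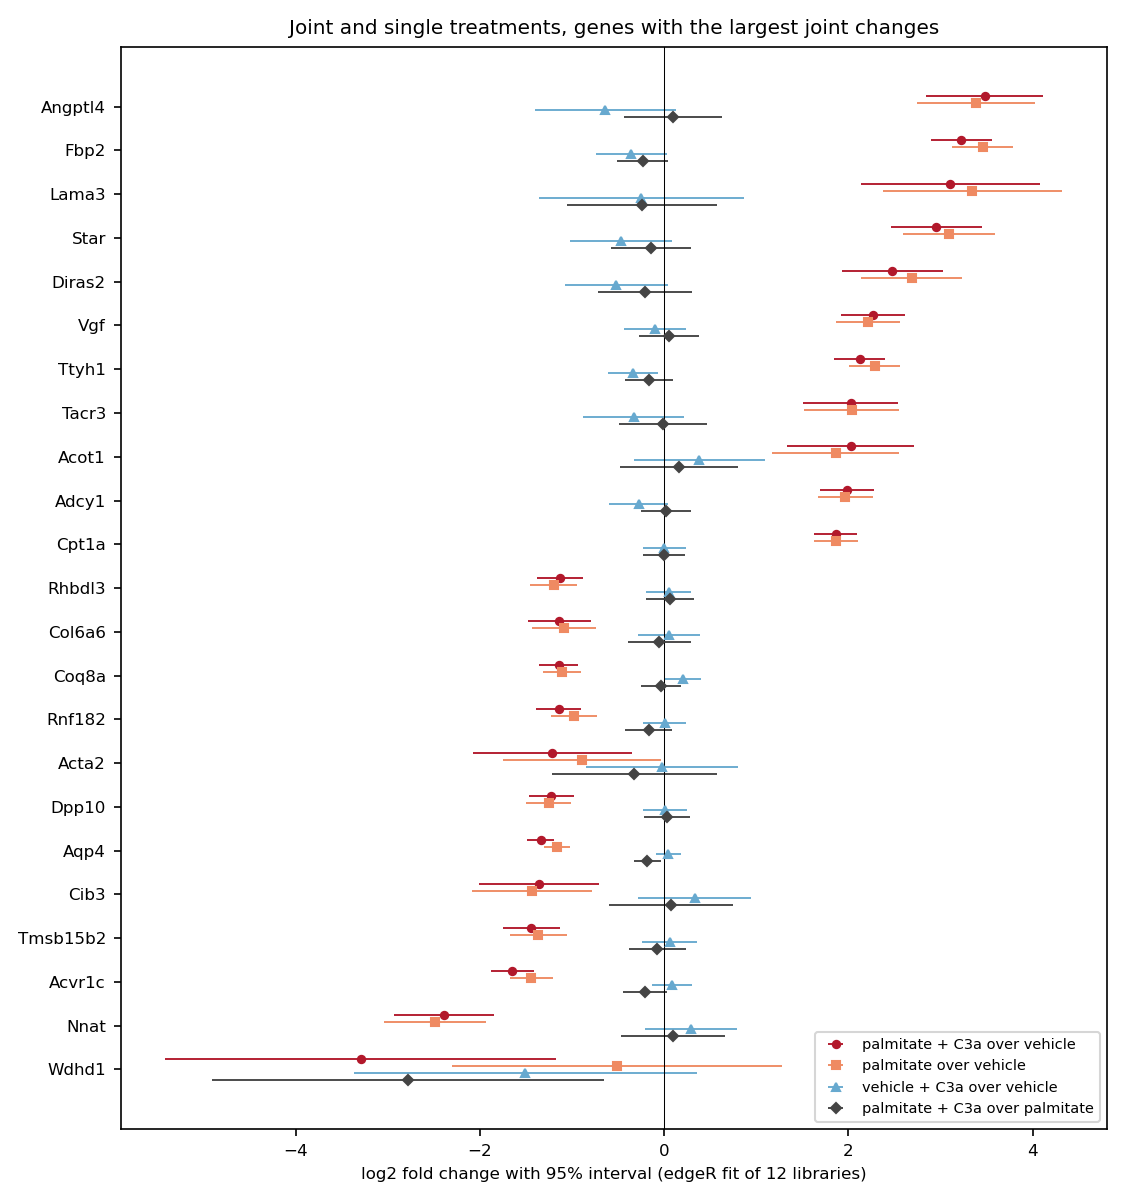
Log2 fold changes with 95% intervals for the genes with the largest joint changes (1 gene not shown): both treatments, palmitate alone and C3a alone over Vehicle, and Palmitate + C3a over Palmitate. The red and orange points lie close to each other for most genes, at 3.48 and 3.39 for Angptl4, and the points of C3a within palmitate lie near 0, except for Wdhd1, at -0.51 with palmitate alone and -2.78 for C3a within palmitate.

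C3a added within palmitate (Palmitate + C3a against Palmitate, 3 libraries each) gave no gene past an adjusted p of 0.05 in edgeR, with 430 genes at an unadjusted p under 0.05 and a smallest adjusted p of 0.595. DESeq2 called 1 gene, the predicted gene Gm21985, and edgeR called 1, the adrenomedullin gene Adm, in batch 2 alone and without replicate 1 of Palmitate + C3a. Adm had 2.40, 0.0574 and 0.0198 CPM in Palmitate + C3a, against 3.32, 2.73 and 3.64 CPM in Palmitate, so that its low level rested on replicates 2 and 3. The test for a departure from the sum of the single treatments also gave no gene in edgeR, with 251 at an unadjusted p under 0.05, and none in DESeq2. A missed threshold does not show that the groups are alike, so the intervals bear on this. For 3723 of the 3998 jointly changed genes (93.1%), the 95% interval of the C3a effect within palmitate lay inside 1.5-fold in either direction, and for 3911 (97.8%) inside 2-fold. Among the 248 genes with at least a 2-fold joint change these numbers were 96 and 170. However, 3215 of the 3998 joint changes were themselves under 1.5-fold. For these an interval inside 1.5-fold can still hold a C3a effect as large as the joint change.

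The genes nearest to a C3a effect within palmitate, none past the threshold, changed little. Sorbs3, an adaptor protein of cell adhesion, had 7.90, 7.96 and 8.01 CPM in Palmitate + C3a, against 5.18, 6.32 and 6.13 CPM in Palmitate. The Vehicle + C3a libraries were at 9.48, 10.8 and 9.09 CPM and the Vehicle libraries at 8.98, 9.20 and 9.89 CPM. Its level was thus lowest in Palmitate, and Palmitate + C3a lay below every Vehicle and Vehicle + C3a library. The log2 difference of Palmitate + C3a over Palmitate was 0.44, with a 95% interval of 0.23 to 0.64 before any adjustment. Gprc5b, an orphan receptor, had 9.08, 9.19 and 9.63 CPM in Palmitate + C3a, against 7.43, 7.18 and 7.37 CPM in Palmitate. Vamp7, a SNARE protein of vesicle fusion, had 53.3, 47.1 and 53.6 CPM in Palmitate + C3a, against 61.5, 62.8 and 57.7 CPM in Palmitate. In each of the 3 genes the 2 groups did not overlap. The genes were picked for their small p among 15794, so the lack of overlap is not separate support.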

How the data were processed

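Messenger RNA of 12 mouse islet libraries was sequenced. The table deposited by the authors holds estimated counts per transcript. The submitters' processing notes name kallisto, DESeq2 and GRCm38 without roles or versions. The library kit marks strand, but which strand was counted is not given in the sources used here. Overlapping, antisense and near-identical genes (Ftl1, ribosomal proteins) are therefore uncertain. Of 71524 transcripts, 69942 had a GENCODE M21 entry, which gave 22141 gene sums. The other 1582 held 0.581% to 0.677% of a library and were not analysed here. Sums were rounded, filtered by filterByExpr, scaled by TMM and fitted in edgeR 4.0.16 (R 4.3.3; quasi-likelihood, robust) over all 12 libraries with group and sequencing batch, leaving 7 residual degrees of freedom. The SE is the log2 fold change divided by the root of F. No 2 libraries agreed within sampling noise (lowest chi-square per degree of freedom 7.35 over 66 pairs). The procedure was tested on simulated data. DESeq2 1.42.0 and other settings were alternatives. The same-number libraries deviated together (18 pairs, lowest r 0.395), as replicate 1 is batch 1. In batch 2 alone the lowest r of 12 pairs was 0.0799, so the numbers beyond batch are not taken to pair libraries. The members and lists were chosen with earlier results of these data known. Named genes were the 12 highest and 12 lowest folds (at least 5 CPM, 1 direction in all 3 pairs), the 6 per direction with the largest CPM change, up to 4 per list by smallest p, the 4 per direction nearest to a C3a effect or interaction, and the hormone, C3 and Dusp26 genes. Trib3, Psat1, Slc7a3, Ddit3, Chac1, Asns, Atf3, Slc7a11, Acaa2, Hadh, Dgat2, Ppargc1a, Slc2a2, Mafa, Ucn3, Nr4a1, Adm and the stromal genes were added after their values were seen. A gene that the rule selects is not reported here. Libraries of 22216420 or more counts limit precision for low genes only.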

Additional observations from a re-analysis of the deposited data

How the results depend on the processing

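Without the batch term 1866 genes were called (943 higher, 923 lower), in batch 2 alone 2089 (1102 higher, 987 lower, 152 at least 2-fold), and without both replicate 3 of Palmitate + C3a and replicate 1 of Vehicle, chosen after seeing the data, 2253 (1121 higher, 1132 lower). The last 2 use fewer libraries; for the batch term the cause was not tested. DESeq2 gave 4052, RLE size factors 3971, no filter on low counts 3670 and the 6 libraries alone 2924. With the replicate block 4595 genes were called (2329 higher, 2266 lower); the numbers pair libraries only through batch. Leaving out 1 library gave 2787 to 3540 genes, 1455 to 1904 higher, 1292 to 1636 lower and 172 to 302 at least 2-fold. For C3a within palmitate the count was 1 under DESeq2 and 1 in batch 2 alone, and 0 to 1 with 1 library left out (1 without replicate 1 of Palmitate + C3a). No interaction was called in any of these fits. Ighm reversed, to a log2 fold change of 0.77 without replicate 1 of Palmitate + C3a and 2.58 without replicate 1 of Vehicle. It was -10.63 without replicate 3 of Palmitate + C3a. Of 165 called genes covered by the naming rule, 97 kept direction and call under all 14 settings.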

Other observations

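Of 27 proteasome subunit genes 11 rose and none fell (median log2 fold change 0.17). Without replicate 3 of Palmitate + C3a or replicate 3 of Vehicle 5 rose, without replicate 1 or 2 of Vehicle 7, in batch 2 alone 4 and without the batch term 2. Of 32 nuclear genes of the respiratory chain 13 rose and none fell (median 0.15). Between 6 and 11 rose with 1 library left out, fewest without replicate 2 of Vehicle (6), then replicate 3 of Palmitate + C3a (7), replicate 1 of Vehicle (7), and replicate 2 of Palmitate + C3a or replicate 3 of Vehicle (8). In batch 2 alone 3 rose, and without the batch term 4. None of the 13 mitochondrially encoded genes passed in edgeR over the 12 libraries, while 5 were lower in edgeR on the 6 libraries of the 2 groups alone, 2 in DESeq2, and 1 without replicate 1 of Palmitate + C3a.

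Of 28 interferon-stimulated and MHC class I genes 5 fell and none rose (median -0.21). The share called was 17.9%, under the 25.3% of all genes tested. In this list 3 fell without replicate 1 or 2 of Palmitate + C3a or without replicate 1 or 3 of Vehicle. Without the batch term 3 fell, and in batch 2 alone 2. Of 24 ceramide and sphingolipid genes 5 rose and 5 fell, while 3 rose without replicate 2 of Vehicle, 2 rose and 3 fell without the batch term, and 3 rose and 3 fell in batch 2 alone. Of 27 genes disallowed in beta cells or tied to dedifferentiation 8 rose and 1, Nnat, fell (median 0.38). Without replicate 3 of Palmitate + C3a 2 fell. Of 19 circadian clock genes 2 rose and 2 fell, a share of 21.1% called, against 25.3% of all genes tested. In this list 1 fell without replicate 3 of Vehicle, 6 fell in batch 2 alone, and 1 rose and 1 fell without the batch term.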
